A study of Mus musculus with 9 samples.

Results

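The clustered protocadherin genes lie side by side on mouse chromosome 18, and 58 of them were annotated in the window examined, with 14 in the alpha, 22 in the beta and 22 in the gamma sub-cluster. The members of the set are the called chromatin interactions with at least 1 bin in that window, which runs on build mm10 (GRCm38) from 10.2 kb before the start of Pcdha1 to the 3' part of Diaph1. Of the 137744 interactions in the 4 lists, 169 qualified by position alone. They were 79 of 49630 CTCF interactions, 48 of 23630 RAD21 interactions, 26 of 36274 H3K27ac interactions in untreated cells and 16 of 28210 H3K27ac interactions after IAA.

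The data come from MNase HiChIP, in which crosslinked chromatin is cut with micrococcal nuclease, ends that lie close together are ligated, and the ligated DNA is enriched with an antibody. All 9 libraries were made from E14, an established mouse embryonic stem cell line, carrying the CTCF AID genotype, so that the controls bear the tagged allele too. IAA is an auxin that leads to degradation of proteins with such a tag. H3K27ac, an acetylated histone residue found at active regulatory elements, was mapped in 2 untreated libraries and in 2 libraries treated with IAA for 12 h. CTCF, a zinc finger protein that binds DNA and halts loop extrusion, was profiled in 2 untreated libraries. RAD21, a subunit of the cohesin ring, was profiled in 3 untreated libraries. Each group is represented by 1 list pooled over its libraries, so values carry no replicate error and differences have no check against it. How far CTCF protein was depleted was not analysed here, nor were CTCF or RAD21 lists from treated cells.

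Clustered protocadherins are cell surface adhesion proteins that give single neurons distinct identities. Each alpha and gamma isoform has its own promoter and large variable exon, which is spliced to constant exons shared by the whole sub-cluster, whereas each beta gene is a single large exon. In neurons, CTCF and cohesin are known to bring chosen promoters to enhancers that lie 3' of the clusters, among them HS5-1 downstream of the alpha constant exons and a group of elements in and near Diaph1 downstream of the gamma constant exons. The positions of these enhancers are not in the annotation used, so the bins below were not assigned to them.

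Contacts are whole-number counts of ligated read pairs that join 2 bins, of 1 kb for CTCF and RAD21 and of 2 kb for H3K27ac. The authors' model gave each pair a predicted count from distance and coverage, and the observed count divided by that prediction is called the enrichment below. The window held 2227 CTCF contacts, 1073 RAD21 contacts and, for H3K27ac, 371 contacts without and 243 with IAA. The models rested on 2839756, 1517698, 12551236 and 14629323 contacts in that order. The median enrichment of the members was 4.58 (CTCF), 6.0 (RAD21), 5.44 (H3K27ac, no IAA) and 5.30 (H3K27ac with IAA), against 4.74, 5.42, 5.50 and 5.37 over the whole lists. As a check of the labelled cell type, genes with their start in an H3K27ac peak bin of a listed interaction were counted. They were 7 of 10 pluripotency genes, 1 of 8 neuronal genes and 1 of 4 neural progenitor genes in both conditions. Of 4 fibroblast genes there were 1 without and 0 with IAA. Over all protein-coding genes the shares were 29.2% without and 26.2% with IAA.

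CTCF and RAD21 interactions fell into 2 groups that did not cross. On the alpha side, all 16 CTCF pairs and all 7 RAD21 pairs joined the alpha variable region to the stretch between the alpha and beta genes. On the other side, 37 CTCF pairs with 1484 contacts and 33 RAD21 pairs with 843 contacts joined the gamma variable region to the stretch 3' of the gamma constant exons. These made up 66.6% of the window's CTCF contacts and 78.6% of its RAD21 contacts. In none of the 4 lists did a pair join the alpha side to the beta or gamma side. Pairs with an end in the alpha region numbered only 16 for CTCF and 7 for RAD21, and 0 in each H3K27ac list. How many crossing pairs would be listed at such spans without a separation was not tested.

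**Figure D1:**
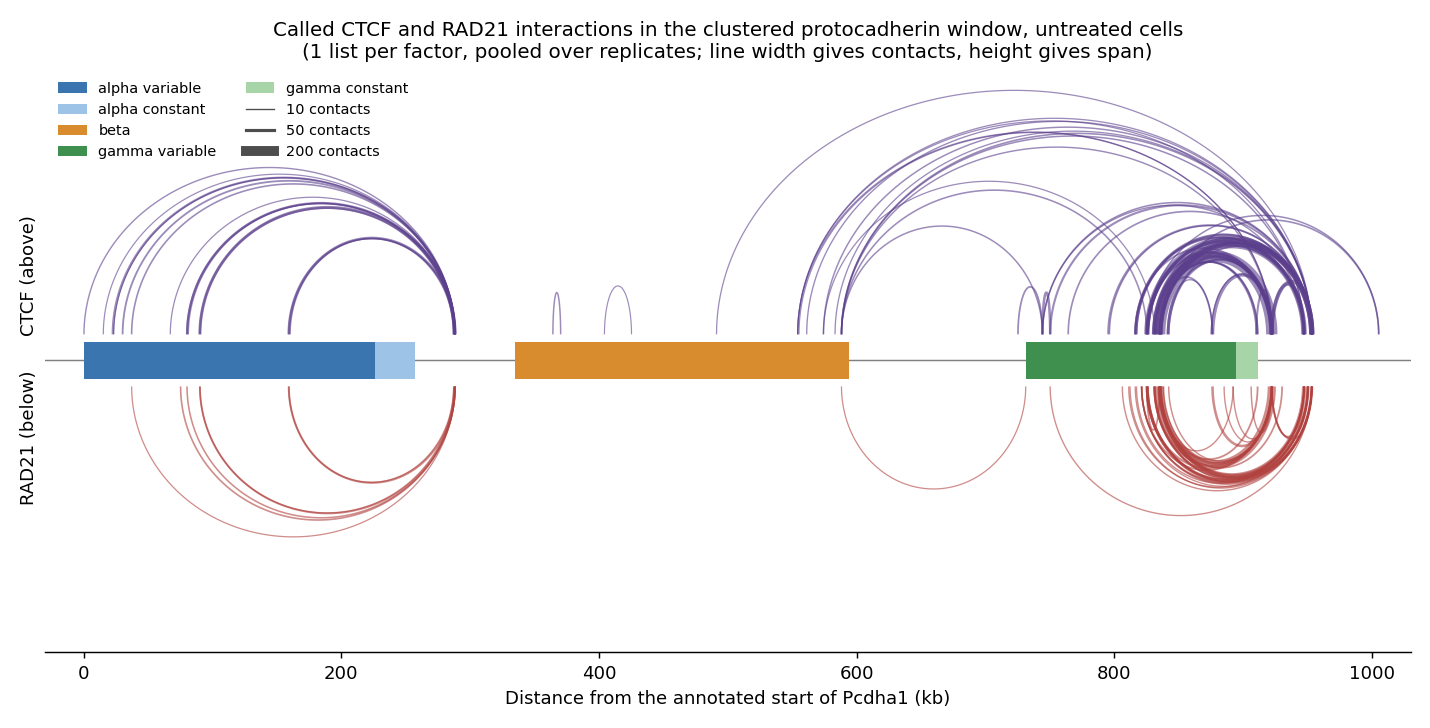
Called CTCF interactions (above the line) and RAD21 interactions (below) in untreated cells, against distance in kb from the annotated start of Pcdha1. Each arc joins the centres of 2 bins of 1 kb, arc height grows with span and line width with contacts, and coloured blocks mark the sub-clusters. The 16 CTCF and 7 RAD21 arcs from the alpha genes end 3' of the alpha constant exons, and the thickest arcs join the end of the gamma variable region to the stretch 3' of the gamma constant exons.

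The alpha interactions ended in 2 adjacent bins, chr18:37217001-37218000 and chr18:37218001-37219000, about 29.3 and 30.3 kb past the last alpha exon and outside any annotated gene. The second of these bins had 12 CTCF pairs with 221 contacts and 5 RAD21 pairs with 89 contacts. The first had 4 CTCF pairs with 73 contacts and 2 RAD21 pairs with 24 contacts. Both bins thus were joined to several alpha isoforms, and the second had more contacts in each list.

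Of the 14 alpha isoforms, 8 had their start site in a bin with a CTCF pair to that stretch, and 4 in a bin with a RAD21 pair. The isoform with most contacts from its start bin was Pcdha12 (ENSMUSG00000103310), the last of the alternate alpha isoforms, with 76 CTCF contacts and an enrichment of 17.5. Its bin, chr18:37020001-37021000, had 48 CTCF contacts with the second 3' bin, 198 kb away, and 28 with the first. The same pairs had 23 and 12 RAD21 contacts. Pcdha12 therefore had the highest start-bin sum of the alpha isoforms in both lists, with 35 contacts for RAD21.

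Pcdha11 is the symbol of 2 gene records in the annotation, which start at 37005203 and 37010712 and were treated as separate isoforms. The first lies between Pcdha9 and the second, and no record of the window carries the symbol Pcdha10. Whether the first record is the isoform otherwise named Pcdha10 was not tested. The 2 records differed in their contacts. The second record had 50 CTCF contacts from its start bin, of which 29 were with the second 3' bin, and 15 RAD21 contacts. The first record had no CTCF pair and 17 RAD21 contacts. The bin of the first record was not an anchor of any interaction in the CTCF list, which holds only pairs of bins that both carry a CTCF peak.

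The remaining start bins with CTCF contacts to the alpha 3' stretch were those of Pcdha5 with 21, Pcdha6 with 16, Pcdhac1 with 12, Pcdha1 with 11, Pcdha4 with 10 and Pcdha9 with 8. In the RAD21 list Pcdha6 had 8 contacts. Pcdhac1, a C-type isoform whose promoter differs from those of the alternate isoforms, was contacted mainly from the bin before its start, chr18:37089001-37090000. That bin had 40 and 17 CTCF contacts, and 26 and 12 RAD21 contacts, with the second and the first 3' bin. With the neighbouring bins counted, 9 alpha isoforms had CTCF pairs and 5 had RAD21 pairs to the stretch. Pcdha2, Pcdha7, Pcdha8 and the C-type isoform Pcdhac2 had no listed pair at their start bins or neighbouring bins in any list.

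The beta genes were joined mostly to the far side of the gamma genes, by pairs that were in the CTCF list and not in the RAD21 list. Of the 16 CTCF pairs that touched the beta region, 11 with 116 contacts ended 3' of the gamma constant exons, across a median span of 370 kb. Another 3 ended in the gamma variable region, and 2 joined beta genes to each other, Pcdhb2 to Pcdhb3 with 13 contacts and Pcdhb6 to Pcdhb8 with 6. These pairs had few contacts, from 6 to 16, with enrichments from 3.09 to 6.36.

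By contacts Pcdhb22 (ENSMUSG00000073591), the last beta gene, led the beta sub-cluster. By CTCF enrichment to the 3' stretch it had 5.65, below the 6.36 of Pcdhb20. The start bin of Pcdhb22, chr18:37518001-37519000, had 16, 14 and 12 CTCF contacts with 3 bins in Diaph1 that lie 365, 359 and 334 kb away. The same bin had 15 contacts with the start bin of Pcdhga11 and 13 with that of Pcdhga3, so that this beta gene was joined to gamma promoters as well as to the 3' stretch. Pcdhb17 had 26 contacts with the 3' stretch over 3 pairs, Pcdhb20 had 13, Pcdhb21 had 9 and Pcdhb11 had 8. The only RAD21 pair of the beta region had 8 contacts and joined the start bin of Pcdhb22 to that of Pcdhga1.

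Altogether 5 of 22 beta genes had a CTCF pair from their start bin to the 3' stretch, and 0 of 22 had a RAD21 pair to it. The stretch was taken to run 158 kb past the last gamma exon. Of the 9 CTCF pairs behind the count, 4 had a q-value of at most 0.01, and 2 ended inside the window. The RAD21 list rested on fewer contacts than the CTCF list, and its weakest pair in the window had 8 contacts, so the absence of beta pairs with few contacts from it was not shown to be a difference. For 13 beta genes no list held a pair at the start bin or a neighbouring bin.

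Gamma interactions had the most contacts of the window, and most of all at the last alternate isoform. By median enrichment the alpha pairs to their 3' bins were higher, with 6.61 for CTCF and 10.3 for RAD21, against 5.49 and 5.78 for the gamma pairs to the 3' stretch. Pcdhga12 (ENSMUSG00000102428) had 495 CTCF contacts and 353 RAD21 contacts from its start bin, chr18:37765001-37766000, to the 3' stretch. The pair of this bin with an intronic Diaph1 bin at chr18:37852001-37853000, 87 kb away, had 231 CTCF contacts where 9.33 were predicted, an enrichment of 24.8. The same pair had 163 RAD21 contacts where 4.69 were predicted, an enrichment of 34.7. By contacts it ranked 23rd of 49630 CTCF interactions and 20th of 23630 RAD21 interactions genome-wide. By enrichment it ranked 214th in the CTCF list and 29th in the RAD21 list.

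Pcdhga12 had further partners deeper in Diaph1. With the bin at chr18:37877001-37878000 it had 104 CTCF and 72 RAD21 contacts. With the bin at chr18:37883001-37884000 it had 99 CTCF and 46 RAD21 contacts. RAD21 also gave 53 contacts with chr18:37880001-37881000 and 19 with chr18:37860001-37861000, 2 bins that were not anchors in the CTCF list. Partners nearer than the 3 main 3' bins had fewer contacts than each of those bins. CTCF gave 29 contacts in the Diaph1 bin at 37851001, 26 in the gamma constant bin at 37841001 and 20 at the Pcdhgc3 start. RAD21 gave 21 in the bin at 37841001, more than the 19 in the farther bin at 37860001. The farther CTCF partners at 37884001 and 37935001 also had fewer contacts than each of the 3 main bins. Contacts of this promoter were highest with the nearest of the 3 main 3' bins in both lists.

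The 2 isoforms just before Pcdhga12 came next. Pcdhgb8, annotated as a polymorphic pseudogene, had 262 CTCF and 107 RAD21 contacts with the 3' stretch, and Pcdhga11 had 210 and 99. Unlike Pcdhga12, both had their most CTCF contacts with the farthest of the 3 main bins. Pcdhgb8 had 83, 70 and 98 CTCF contacts with the bins starting at 37852001, 37877001 and 37883001. Pcdhga11 had 52, 37 and 92. In the RAD21 list the same 3 bins had 34, 21 and 19 contacts with Pcdhgb8 and 26, 21 and 29 with Pcdhga11, so that for Pcdhgb8 the order was not the same in the 2 lists.

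Gamma isoforms farther from the 3' end than Pcdhga11, Pcdhgb8 and Pcdhga12 had fewer contacts with the 3' stretch than each of these. So did the C-type isoforms, which lie nearer to it. Among the farther isoforms contacts did not fall steadily with distance, as Pcdhgb1 and Pcdhga3 had more CTCF contacts than the nearer Pcdhga8 and Pcdhga5. Pcdhgb7, just before Pcdhga11, had no CTCF pair at its start bin. The CTCF sums were 71 for Pcdhga10, 22 for Pcdhga8, 17 for Pcdhga5, 27 for Pcdhgb1 and 26 for Pcdhga3. In the RAD21 list Pcdhgb7 had 59, Pcdhga9 had 11, Pcdhgb1 had 10, and Pcdhga10 and Pcdhgb6 had 9 each. Of the C-type gamma isoforms, which are expressed differently from the alternate ones, Pcdhgc3 had 59 CTCF and 37 RAD21 contacts, each with the bin at 37852001 only, and Pcdhgc4 had 10 RAD21 contacts. In all, 9 of 22 gamma isoforms had a CTCF pair from the start bin to the 3' stretch and 10 had a RAD21 pair. Of the 24 CTCF and 23 RAD21 pairs behind these counts, 7 in each list ended inside the window and the rest in Diaph1 bins beyond it. Pcdhga4, Pcdhga6, Pcdhga7, Pcdhgb2, Pcdhgb4 and Pcdhgb5 had no listed pair at their start bins or neighbouring bins in any list.

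**Figure D2:**
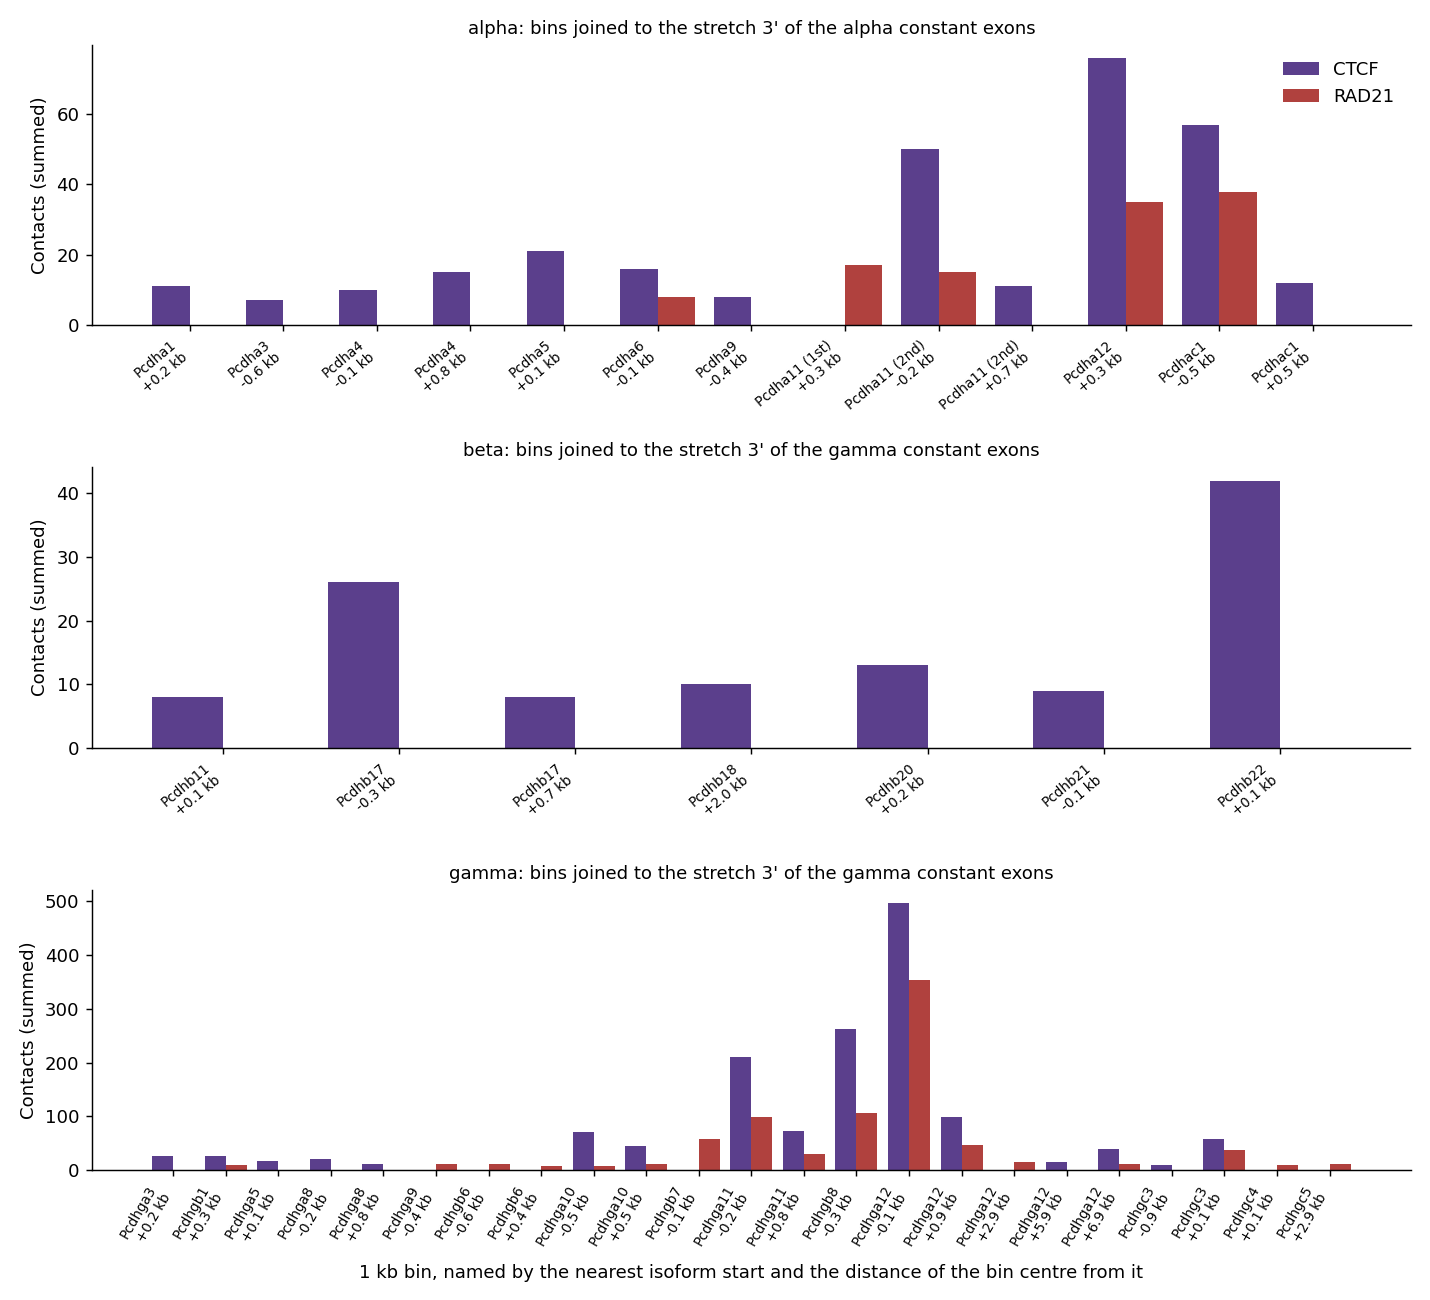
Contacts of each 1 kb bin with the 3' stretch of its sub-cluster, summed over pairs, for CTCF (purple) and RAD21 (red) in untreated cells; no bar means no listed pair. Bins run 5' to 3' from left to right and are named by the nearest isoform start with the distance of the bin centre from it in kb, and each panel has its own scale. The highest bars are the start bins of Pcdha12 with 76 CTCF contacts, Pcdhb22 with 42 and Pcdhga12 with 495.

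Across pairs, contacts tended to be lower at longer span. Spearman's rho between span and CTCF contacts was -0.64 over 16 alpha pairs, -0.58 over 11 beta pairs and -0.27 over 37 gamma pairs. For RAD21 it was -0.43 over 33 gamma pairs and -0.25 over 7 alpha pairs. Between span and CTCF enrichment, which takes predicted distance decay into account, rho was -0.41, -0.36 and -0.25 for the alpha, beta and gamma pairs. These pairs share bins and 1 library pool, so the values are given as descriptions. Coverage moved with contacts as well, with rho 0.54, 0.61 and 0.33 for CTCF over the alpha, beta and gamma pairs. For RAD21 over the gamma pairs it was 0.79. Between coverage and enrichment rho was 0.22, 0.30 and 0.34 for CTCF and 0.67 for RAD21 over the same pairs. The part of coverage in the order of the isoforms was not tested. The variable exons of neighbouring isoforms resemble each other, and how reads matching several of them were handled is not given in the sources used here, so the division of contacts between neighbouring isoforms is uncertain.

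Anchor bins inside the alpha variable, beta and gamma variable regions mostly lay at or close to isoform starts. Of the 50 CTCF anchor bins, 25 held a start site, and of the 33 RAD21 anchor bins, 16. In the alpha variable region all 12 CTCF anchors held a start site or lay next to a bin with one. In the beta region all 11 did except the bin at 37491001, centred 2.04 kb past the Pcdhb18 start. In the gamma variable region 14 of 16 did. Their median CTCF coverage, as the authors' files give it, was 774 in the alpha, 961 in the beta and 1948 in the gamma variable region. By number of partners, the leading CTCF anchors were the Diaph1 bins starting at 37883001 with 20 partners and 37852001 with 16, the alpha 3' bin starting at 37218001 with 12, the Diaph1 bin starting at 37877001 with 11 and the start bin of Pcdhga12 with 9. For RAD21 they were the Diaph1 bins starting at 37852001 with 14, 37883001 with 10, 37877001 with 8 and 37880001 with 7, and the start bin of Pcdhga12 with 8. Thus 4 of these leading anchors were common to both lists. Partners were counted among the members, and the bin at 37883001, which lies past the window, had 22 CTCF partners in the whole list, while the counts of the other leading anchors were the same there. The 3' bins also contacted each other, with 52 and 62 CTCF contacts from the bin at 37852001 to those at 37877001 and 37883001.

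Of the 48 RAD21 pairs, 27 were also in the CTCF list as the same pair of bins, a share of 56.3% (95% Wilson interval 42.3 to 69.3%). Over the genome the share was 72.2%. The reverse share was 27 of 79 CTCF pairs, or 34.2% (24.7 to 45.2%), against 34.4% over the genome. On the alpha side 6 of 7 RAD21 pairs were in both lists, and toward the 3' stretch 20 of 37. For 20 of the 21 RAD21 pairs absent from the CTCF list, at least 1 bin was not an anchor of any CTCF interaction, against 67.7% of 6567 such pairs genome-wide. The bins concerned most often were the Diaph1 bin at 37880001, with 7 such pairs, and the start bin of Pcdhgb7, with 4. Such intervals cover counting error only and treat pairs as independent, although many of them share bins.

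At the 27 common pairs, CTCF and RAD21 contacts were compared by an exact two-sided binomial test. The expected split came from the totals over all 17063 common pairs, and p-values were adjusted over all of them by the Benjamini-Hochberg method. This compares 2 pooled libraries and not replicated conditions. In the window 2 pairs passed an adjusted p of 0.05, both with fewer RAD21 contacts than expected and 0 with more. Over all common pairs the share was 1.1% in either direction, 0.639% for fewer and 0.463% for more. The pair of Pcdhgb8 with the Diaph1 bin at 37883001 had 98 CTCF and 19 RAD21 contacts, a log2 ratio of -1.71 (95% interval -2.50 to -0.99, adjusted p = 0.000148, exact binomial test). The pair of the Diaph1 bins at 37852001 and 37883001 had 62 and 15 contacts, a log2 ratio of -1.39 (-2.31 to -0.56, adjusted p = 0.0402, exact binomial test). With the split taken from the totals of the authors' models, the second pair had an adjusted p of 0.121 by the same exact test.

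The other 25 pairs did not pass, among them the strongest pair, that of Pcdhga12 with the bin at 37852001. Unadjusted, 6 of the 27 pairs (22.2%) had a p under 0.05, against 8.91% of all common pairs. All 6 had fewer RAD21 contacts. Among them 3 started in the bin of Pcdhgb8 and 3 ended in the bin at 37883001. The pair that joins those bins is in both counts. The log2 ratios of the 27 pairs ran from -1.71 to 0.35 with a median of -0.34, and the median over all common pairs was 0.04. With the split from model totals, both medians moved up, to -0.10 in the window and 0.28 over all pairs.

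**Figure D3:**
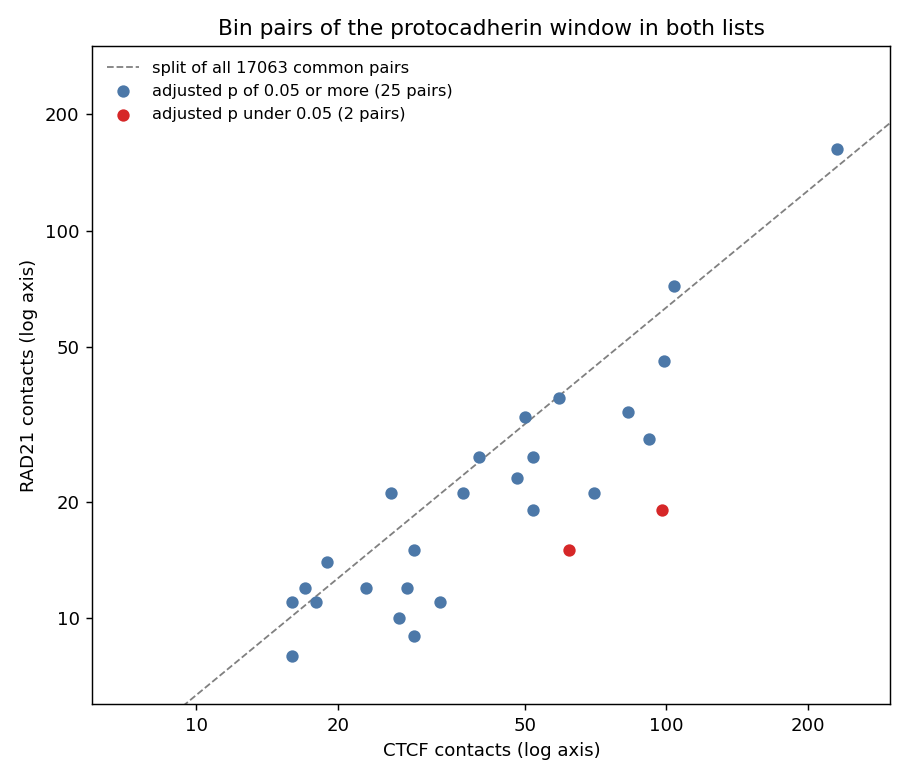
RAD21 contacts against CTCF contacts, both on log axes, for the 27 bin pairs of the window that were in both lists. The dashed line marks the split of the totals over all 17063 common pairs, and red points are the 2 pairs with an adjusted p under 0.05, which lie below the line with 19 and 15 RAD21 contacts.

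The CTCF core motif, a sequence of 14 positions, was matched on both strands with at most 1 mismatch inside the bin. How often a match was found differed by region, so orientation could be compared for few bins. In the alpha variable region 5 of 12 CTCF anchors held the motif on the forward strand only, and both alpha 3' bins held it on the reverse strand. In the beta region 0 of 11 anchors held a match, and in the gamma variable region 1 of 16 did, on both strands. Of the 3 main Diaph1 bins, the one at 37852001 held a reverse match, that at 37883001 matches on both strands and that at 37877001 none. A match on a single strand at both ends was found in 7 of 79 CTCF pairs (8.86%) and 3 of 48 RAD21 pairs (6.25%), against 28.2% and 30.7% genome-wide. All of these were alpha pairs that ended in the same 2 adjacent 3' bins, and all pointed toward each other. The genome-wide shares pointing toward each other were 66.7% of 14017 for CTCF and 78.6% of 7263 for RAD21. With motifs in neighbouring bins counted too, 15 of 18 CTCF pairs (83.3%) and 5 of 7 RAD21 pairs (71.4%) pointed toward each other, against 67.2% and 76.6% genome-wide. A match is a description of the bin and not a bound site. Nor does a bin without a match lack CTCF, since both bins of all 79 CTCF pairs carried a CTCF peak. The orientation of CTCF sites at the beta and gamma starts was therefore not determined.

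H3K27ac interactions were found in the gamma part of the window and not elsewhere among the 3 sub-clusters. In untreated cells all 26 touched the gamma region, 20 of them with both ends inside it. After 12 h of IAA 14 of 16 touched the gamma region, and the other 2 lay between the beta and gamma genes. The alpha and beta regions had 0 H3K27ac pairs in both lists. Spans were short, with medians of 14 and 13 kb. Both ends were H3K27ac peaks in 20 of 26 untreated pairs and in 16 of 16 after IAA, against 85.2% and 87.6% over the whole lists, which required a peak at 1 end.

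The H3K27ac pair with most contacts was the same in both conditions. It joined the bins chr18:37826001-37828000 and chr18:37834001-37836000, within introns between the gamma constant exons. It had 40 contacts in untreated cells and 40 after IAA, with enrichments of 7.26 and 6.36. By enrichment other members were highest, with 7.67 in untreated cells and 7.63 after IAA. The bin at 37826001 also joined chr18:37836001-37838000, with 24 contacts before and 25 after IAA. Other leading pairs of the untreated list joined the bin at 37826001 to that at 37832001 with 26 contacts, 37828001 to 37834001 with 24 and 37834001 to 37840001 with 20, and these 3 were not listed after IAA. Other leading pairs after IAA were that of the Pcdhgc3 start bin with the bin at 37824001, with 17 contacts, that of 37824001 with 37834001, also with 17, and that of 37840001 with a Diaph1 exon bin at 37860001, with 16. Of these, the pairs with Pcdhgc3 and with Diaph1 were not listed in untreated cells.

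Of the 26 untreated pairs, 7 were called after IAA as the same bin pair, 26.9% (13.7 to 46.1%), where the share over all 36274 untreated pairs was 42.9%. When each bin could differ by 1 bin, 12 of 26 were found, against 65.7% genome-wide. Many members had few contacts. Of those with 8 or 9 contacts, 1 of 12 was called after IAA, against 15.1% of 5870 such pairs genome-wide. Of those with at least 10, 6 of 14 were, against 48.7%. In the other direction 7 of 16 IAA pairs were in the untreated list, 43.8%, where the share over the list was 55.1%.

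The 7 shared pairs had 133 contacts before and 137 after IAA. The largest rise was from 11 to 15 contacts, between the bins at 37824001 and 37840001, a log2 ratio of 0.48. The largest fall was from 17 to 15, between those at 37826001 and 37840001, a log2 ratio of -0.15. None of the 7 passed the exact binomial test after adjustment over all 15551 shared pairs, where the share passing genome-wide was 0.135%, with 0.0965% higher and 0.0386% lower after IAA. Unadjusted, 0 of 7 had a p under 0.05, against 4.41% genome-wide. With model totals in place of shared totals the count was also 0, and 6 of the 7 log2 ratios lay below 0 in place of 1, as the same rescaling moved all shared pairs from 46.2% to 72.0% below 0. In simulated data of this size the test recovered 4.5% of 2-fold and 69.5% of 4-fold changes, so a change of 2-fold in a single pair would mostly not have been detected.

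H3K27ac pairs from the gamma promoters to the 3' stretch were few and lay in the untreated list. From a start bin itself there was 1 such pair, with 8 contacts, and with neighbouring bins there were 4, with 33. From the whole gamma variable region, 5 pairs with 8 or 9 contacts each, 41 in all, reached Diaph1 bins over 82 to 124 kb. They started at the bin of the Pcdhgb8 start, at bins within the variable exons of Pcdhga11 and Pcdhga12 and at a bin 5.42 kb past the Pcdhga12 start. After IAA 0 such pairs were listed. At these counts few pairs recurred anywhere, since of 4232 untreated pairs with 8 or 9 contacts and a span of at least 50 kb, 16.4% were called after IAA, and the lowest count listed after IAA at such spans of 82 to 124 kb was 7. Whether the 5 pairs had fewer contacts after IAA or only missed the authors' threshold cannot be told apart, and the difference was not tested.

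Some isoform starts appeared in the H3K27ac lists. In untreated cells the start bin of Pcdhgc3 had 9 contacts with a bin in Pcdhga12, and that of Pcdhga12 had 13 with the bin at 37770001. After IAA the start bin of Pcdhgc3 had 17 and 10 contacts with the bins at 37824001 and 37822001. By their midpoints both lie at the 3' end of the gamma variable region. The bin at 37824001 also holds exon sequence of 22 protocadherin genes, since the gamma constant exons begin inside it, at 37825021. The start bin of Pcdhga2 had 10 contacts with a bin in the Pcdhga1 exon after IAA. Of the untreated H3K27ac pairs, 4 of 26 fell on the same pair of 2 kb bins as a CTCF pair and 4 as a RAD21 pair, against 6.23% and 5.68% of the whole list. After IAA the counts were 0 and 0 of 16, against 3.27% and 3.38%. All of the untreated ones were among the 5 pairs from the gamma variable region to Diaph1, each of which had a CTCF or a RAD21 counterpart.

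**Figure D4:**
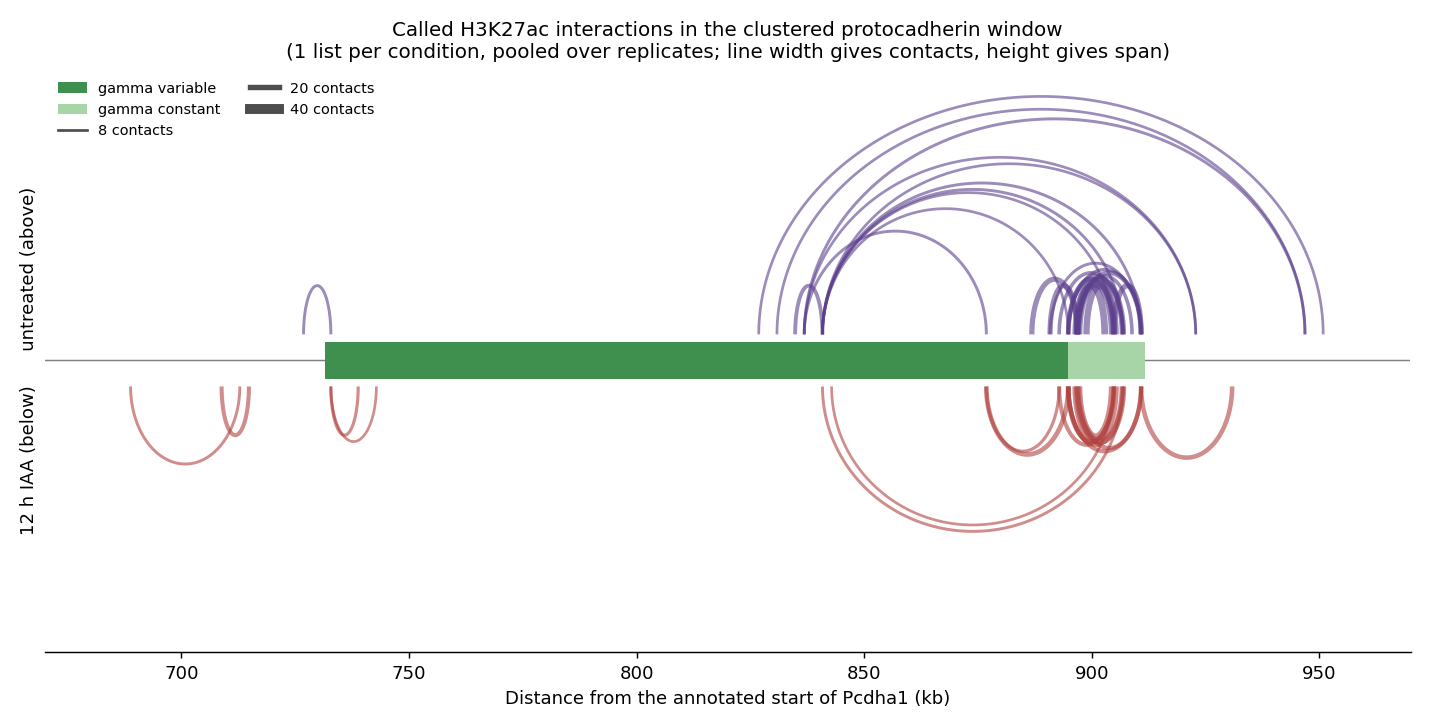
Called H3K27ac interactions in untreated cells (above the line) and after 12 h of IAA (below), against distance in kb from the annotated start of Pcdha1, around the gamma genes. Each arc joins the centres of 2 bins of 2 kb, arc height grows with span and line width with contacts. The 5 long arcs of 82 to 124 kb from the gamma variable region past the constant exons are in the untreated list, and pairs around the constant exons are in both.

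H3K27ac coverage of the bins themselves could be compared for 10 bins that were in both lists. Coverage after IAA over untreated had a median log2 ratio of 0.13 in these bins and of 0.20 over all 16828 bins in both lists, where the central 90% ran from -0.06 to 0.52. In 9 of the 10 bins the ratio lay between -0.06 and 0.31. The exception was the Diaph1 bin chr18:37880001-37882000, whose coverage was 923 in untreated cells and 1937 after IAA, a log2 ratio of 1.07. This bin took part in a gamma pair in untreated cells only. Without replicates the difference has no error.

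Among related genes, 25 of the 58 clustered protocadherins had their start in a peak bin of a listed CTCF interaction and 16 in one of a RAD21 interaction. Over all 21951 protein-coding genes the shares were 20.7% and 13.8%. For H3K27ac the counts were 2 of 58 in each condition, where the shares were 29.2% without and 26.2% with IAA. Non-clustered protocadherins, which lie outside the clusters and do not share constant exons, gave 1 of 12 for CTCF and RAD21 and 0 of 12 for H3K27ac. The 1 was Pcdh1, which had 9 CTCF pairs and lies 250.4 kb past Diaph1 on chromosome 18. Of 12 known regulators of the clusters or of loop formation, 5 had CTCF and RAD21 interactions at their start, and 8 had H3K27ac interactions without and 9 with IAA. Of the 18 genes listed as neighbours on chromosome 18, 6 had CTCF, 1 had RAD21, 12 had untreated H3K27ac and 13 had H3K27ac interactions after IAA at their start. The neighbours Slc25a2 and Taf7, which lie between the beta and gamma genes, were joined to each other by 14 H3K27ac contacts after IAA and had no listed pair at their starts in untreated cells.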

How the data were processed

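Called interactions were analysed from 4 deposited lists, 1 for each group of H3K27ac, CTCF or RAD21 libraries, pooled over replicates per the labels. Trim Galore, BWA, MACS2, deepTools and build mm10 are named in the submitters' processing notes, without roles. Per the file headers, each bin pair carries a contact count, both bins' coverage and peak flags, a predicted count (a model signal), a probability given as a fraction, and p- and q-values. The deposited contact counts were not normalised, and all deposited q-values were under 0.05.

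Bins were assigned by their midpoint to sub-clusters of the GENCODE M21 basic annotation, and an isoform was joined to a bin that held one of its start sites. No anchor lay beyond a chromosome end of GRCm38.p6. Lists were compared by identical bin pairs. Contacts of common pairs were compared by an exact binomial test with adjustment over all common pairs, tested on simulated data in which 62.5% of 4-fold changes between CTCF and RAD21 were recovered. Depth is given by the model contacts, and median counts of 11.5 to 17 per member limit precision. The confidence level of intervals was 95%, and they describe counting error alone, because each group is 1 pooled list. As a separate limit, PCR copies were not told apart by molecular identifiers. Because the labels name replicates but the lists pool them, p-values compare pools of libraries. Python 3.11.15 with numpy 2.4.6, pandas 2.3.3, scipy 1.17.1 and matplotlib 3.10.9 was used.

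The members, gene lists and tests were chosen with earlier results of these data known. Named were, for CTCF and RAD21, the 3 pairs with most contacts per sub-cluster that had an isoform start at 1 end, the 5 anchors with most partners and the 3 isoforms per sub-cluster with most contacts to the 3' stretch. For H3K27ac they were the 5 pairs with most contacts per list and the largest rise and fall among shared pairs. Other members were named after their values were seen. Of 19 genes listed as neighbours, 1 (Relch) is annotated on chromosome 1 and was left out; it had no listed pair at its start.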

Additional observations from a re-analysis of the deposited data

How the results depend on the processing

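Of 67 recomputed values for main results and single pairs, 46 were counted as unchanged, by criteria that allowed changes in size. The 46 include the median log2 ratio of common CTCF and RAD21 pairs under model totals, which kept its sign only. They also include the share of untreated H3K27ac pairs called after IAA, 42.9% with at least 10 contacts in both lists against 26.9%. The share of RAD21 motif pairs pointing toward each other, 71.4% with neighbouring bins counted against 100%, is among them too. With both bins required in the window, 44 CTCF and 23 RAD21 pairs remained. A q-value of at most 0.01 left 15 untreated H3K27ac pairs, all touching the gamma region, 7 CTCF and 0 RAD21 pairs touching the beta region, 4 CTCF pairs from beta starts to the 3' stretch and 0 such untreated H3K27ac pairs from gamma starts. At least 10 contacts left 14 untreated H3K27ac pairs. Counting neighbours of start bins gave 16 CTCF pairs from alpha starts to the 3' stretch and 4 untreated H3K27ac pairs from gamma starts. Ending the 3' flank at the end of the window, before the Diaph1 bins at 37877001 and beyond, left 2 CTCF pairs from beta starts, 7 CTCF and 7 RAD21 pairs from gamma starts and 0 untreated H3K27ac pairs. With each bin free by 1 bin, 53.2% of CTCF pairs were in the RAD21 list and 46.2% of untreated H3K27ac pairs were called after IAA. With the split from model totals, or an adjusted p under 0.01, 1 CTCF and RAD21 pair passed the exact binomial test. With the split from model totals the median log2 ratio of the common CTCF and RAD21 pairs went from -0.34 to -0.10, and that of shared H3K27ac pairs went from 0.03 to -0.22. Under model totals the pair of the Diaph1 bins at 37852001 and 37883001 kept its direction at -1.14 without passing. With no mismatch allowed, no pair of the window had motifs at both ends, so that alternative gave no value.

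No paired analysis was possible because each group is deposited as 1 list pooled over its replicates. For the same reason leaving out each replicate and the replicate block were not run. Low counts limit the precision of the H3K27ac values, as 12 of 26 untreated pairs had 8 or 9 contacts, against 16.2% of the whole list.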
